A study of Drosophila melanogaster with 8 samples.

Results

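Oxidative phosphorylation (OXPHOS) makes ATP at the inner mitochondrial membrane. Complexes I, III and IV pass electrons from NADH to oxygen and pump protons, and complex V, the ATP synthase, lets the protons flow back and makes ATP. Most subunits are encoded in the nucleus and a few by mitochondrial DNA, and in Drosophila several subunit genes have a duplicate, many of them known for expression in the testis. The ovary is known for building up mitochondria in the germline, which the egg passes on to the next generation.

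The 67 genes described here were those whose symbol in the authors' comparison begins with ND- (complex I), UQCR (complex III), COX4 to COX8 (complex IV) or ATPsyn (complex V), of 11397 genes in that comparison and 14094 genes with an expression value. Without an L suffix there were 58 of them, called subunit genes below, with 34 in complex I, 6 in complex III, 7 in complex IV and 11 in complex V. The other 9 carry an L after the name of a subunit and are called L paralogues. All 58 subunit genes and 3 of the L paralogues reached the mean of 1 TPM (a transcript level divided by length and scaled so that each library sums to 1000000) required for testing. The remaining 6 L paralogues were lower and were not tested.

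Polyadenylated RNA was sequenced from ovaries of Drosophila melanogaster enriched for GSC-like cells, which resemble germline stem cells. The 4 Stwl overexpression libraries, titled StwlEY, were set against 4 control libraries without the overexpression, to ask how the chromatin protein Stonewall (Stwl) affects expression in such cells. Females of both groups were 4 to 5 days old, and each sample pooled about 35 ovaries. The alleles that enrich the cells, the driver of the overexpression and the strain of each group were not known from the labels, so a strain difference cannot be told apart from Stwl. Nor is it said whether replicates came from separate crosses, and p-values therefore measure only the spread between these samples.

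The stwl gene itself had 57.9 ± 9.65 TPM in Stwl overexpression libraries and 23.5 ± 1.31 TPM in control libraries (SD, n = 4 each), a log2 fold change of 1.25 (limma adjusted p = 0.000323). Of 8898 genes tested with limma and Benjamini-Hochberg adjustment, 8.38% passed the threshold of 0.05, with 6.2% higher and 2.18% lower under Stwl overexpression. Depth is unknown, since TPM keeps none; 8618 to 8941 genes reached 1 TPM in a library. The 9 germline markers, vas and nos among them, were all measured, summed to 754 to 1052 TPM in Stwl overexpression libraries and 986 to 1075 TPM in control libraries. None of the 9 passed limma, while 8 had log2 fold changes below 0 (median -0.18). Of the 9, 5 had an adjusted p under 0.05 in the authors' deposited table, against 18.9% of its genes with a value. Markers of follicle cells and eggshell were far more abundant, at 63118 to 92645 TPM with Stwl overexpression and 62229 to 91124 TPM in controls. Of these 10, 6 were higher, against 6.2% of all tested genes, and 4 had log2 fold changes below 0 (median of the 10, 3.06). In RNA of whole ovaries, fewer cells of a type and less RNA per cell cannot be told apart.

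The subunit genes were among the most abundant transcripts of these ovaries and kept nearly the same level under Stwl overexpression. In 56 of the 58 the mean lay between 87.0 TPM for ND-B14.5A and 1221 TPM for ATPsynC, a 14.0-fold range, and above 83.7% or more of all tested genes. Among the 58, 0 were higher and 1, ATPsynbeta, was lower, which is 1.72% against 8.38% of all tested genes. At an unadjusted p under 0.05 there were 7 of 58, beside 1899 of 8898 for all tested genes. At an adjusted p under 0.05, the authors' deposited table holds 0 higher and 2 lower subunit genes, ATPsynbeta and ND-24, and its own mark for both is not changed.

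Differences between the groups were small in either direction. The median log2 fold change of the 58 was 0.02 and their median absolute change was 0.05, beside 0.01 and 0.11 for all tested genes. The 58 were also more abundant and measured with less noise. Their median level was 226 TPM and their median standard error (SE) 0.049, beside 28.3 TPM and 0.101 for all tested genes. How far this accounts for the smaller changes was not tested. For the 56 abundant subunit genes the fold changes ran from -0.20 for ATPsynbeta to 0.16 for COX7C, and their 95% confidence intervals from -0.30 to 0.26. In 39 of them the group means lay within 5% of each other. The interval stayed within a 20% change for 53 of 58, and the exceptions were ND-B8, ND-MLRQ, ND-MNLL, ND-PDSW and ATPsynbeta. Fold changes were above 0 for 41 and below 0 for 17, but this sign depended on the processing. The median turned to -0.03 when the libraries were quantile normalized, and that of all tested genes turned to -0.02. In the authors' deposited table most of the 58 log2 fold changes are below 0. In 12 of 58 (20.7%) the 2 groups' libraries did not overlap, 8 higher and 4 lower, against 16% of all tested genes. By complex these were 4 of 34 in complex I, 0 of 6 in complex III, 3 of 7 in complex IV and 5 of 11 in complex V.

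**Figure D1:**
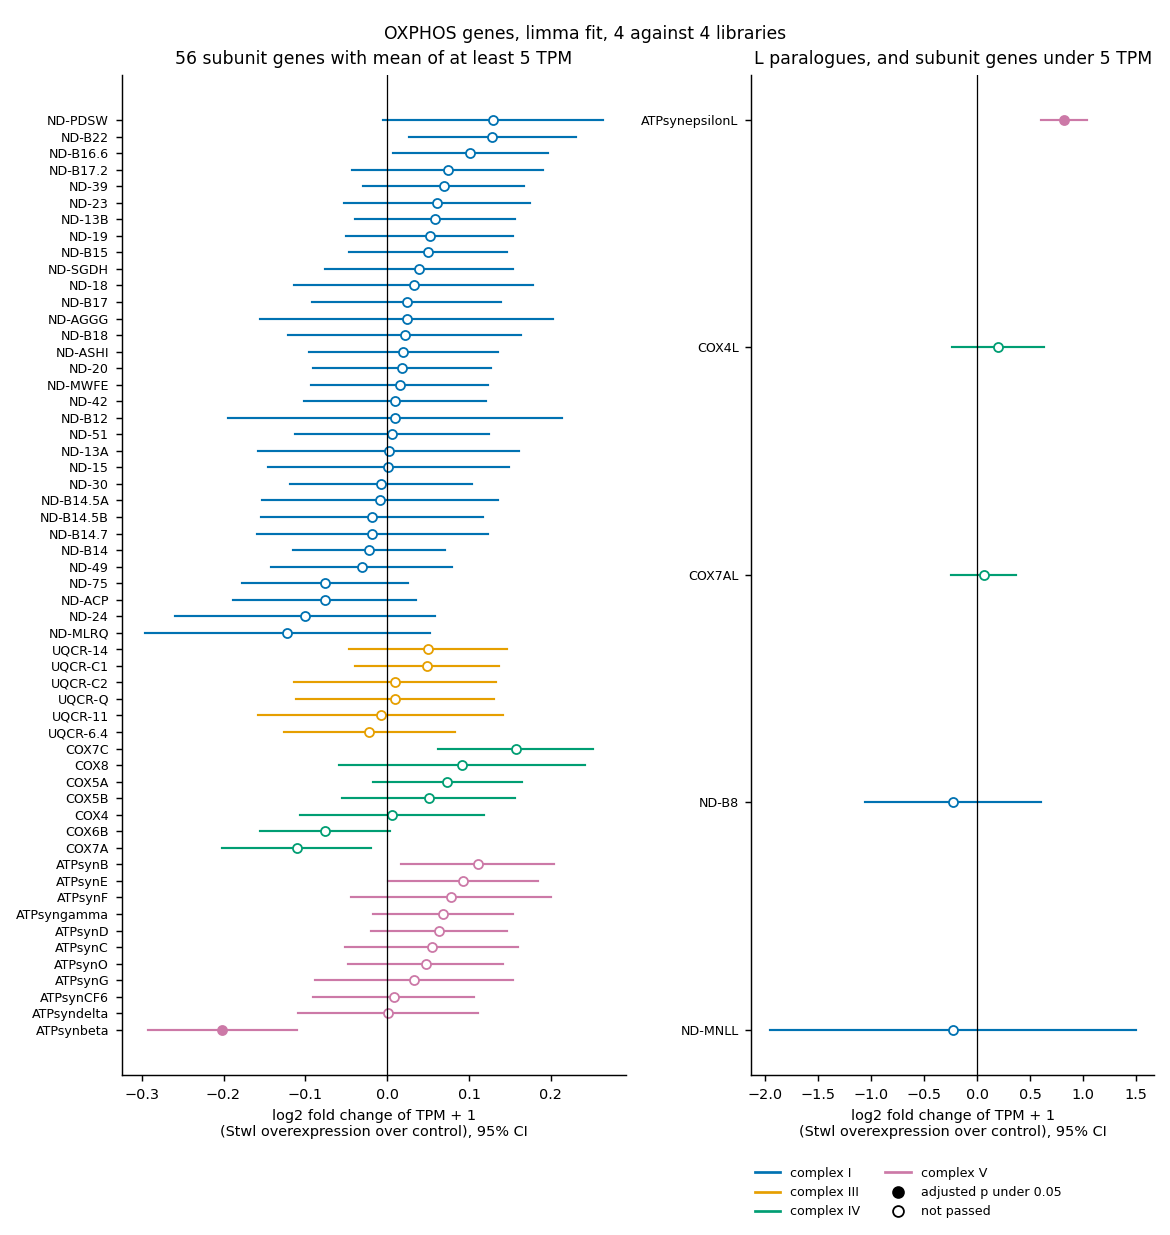
Log2 fold change of TPM + 1 (Stwl overexpression over control) with its 95% confidence interval for each tested gene, coloured by complex; filled points have an adjusted p under 0.05. The 56 abundant subunit genes on the left lie between -0.20 and 0.16 with ATPsynbeta as the filled one, and ATPsynepsilonL on the right lies at 0.82.

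Added up, the 58 subunit genes made up 1.79 to 1.88% of all TPM in every library. Their sum was 18797, 18525, 18520 and 18023 TPM in the Stwl overexpression libraries, against 17946, 18091, 18795 and 18462 TPM in the control libraries. The groups overlapped, and their means of 18466 ± 322 and 18323 ± 382 TPM (SD, n = 4 each) differed by 0.78%. Each complex overlapped as well, with Stwl overexpression means higher by 0.48% for complex I, 0.67% for complex III, 0.87% for complex IV and 1.07% for complex V. These signs depended on the scaling: with median-of-ratios scaling the differences were -0.85%, -0.52%, -0.39% and -0.22%, and without the 20 most abundant genes -0.69%, -0.45%, -0.28% and -0.10%. The spread between Stwl overexpression libraries depended on it too. With median-of-ratios scaling the 58 summed to 20798, 18885, 17489 and 16314 in replicates 1 to 4, against 18061 to 19071 in controls. Without the 20 most abundant genes the sums were 25532, 24548, 23514 and 22791, against 24027 to 24287. The 9 L paralogues did not overlap, at 93.6 ± 6.43 TPM with Stwl overexpression and 55.5 ± 6.61 TPM in controls, and ATPsynepsilonL supplied most of that sum.

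**Figure D2:**
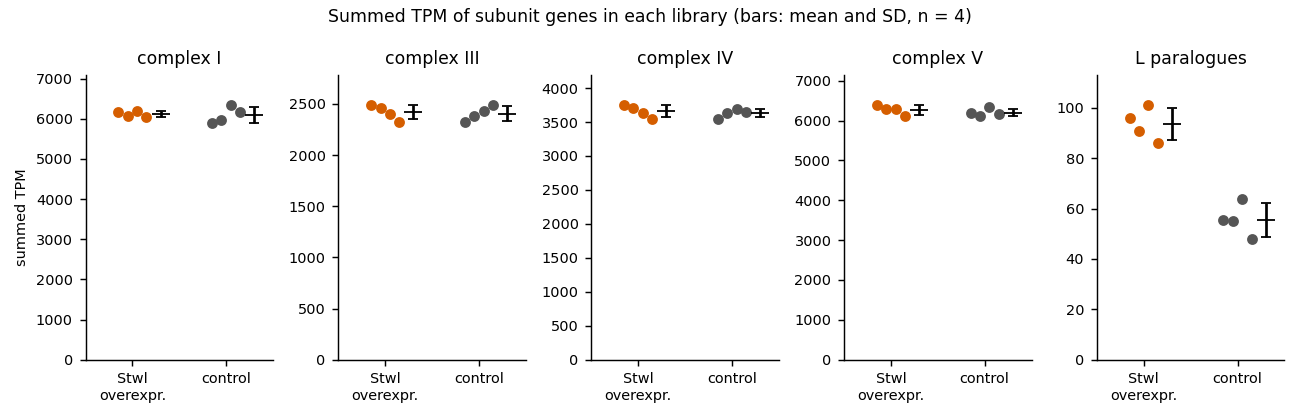
Summed TPM of the subunit genes of each complex and of the L paralogues in each library, with Stwl overexpression in orange and control in grey; bars give the mean and SD (n = 4). The 4 complexes overlap between groups, and the L paralogues lie at 93.6 ± 6.43 TPM with Stwl overexpression and 55.5 ± 6.61 TPM in controls.

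Complex I takes electrons from NADH and hands them to ubiquinone. None of its 34 genes passed the limma test, 2 had an unadjusted p under 0.05, and 1, ND-24, had an adjusted p under 0.05 in the authors' deposited table, which marks it as not changed. The median log2 fold change was 0.01. Its 32 genes above 5 TPM had a median level of 172 TPM, with ND-MLRQ the most abundant at 545 TPM. ND-MLRQ, whose mammalian counterpart NDUFA4 is known there as a subunit of complex IV, had the most negative fold change of the 32 at -0.12 (limma adjusted p = 0.431). It had 602, 492, 501 and 493 TPM in Stwl overexpression libraries, against 528, 561, 624 and 555 TPM in control libraries. Replicate 1 of Stwl overexpression lay above 3 of the controls and the other 3 lay below every control. The most positive was ND-PDSW at 0.13 (adjusted p = 0.256), an accessory subunit, with 150 ± 8.10 and 137 ± 7.70 TPM and overlapping groups. ND-B22 (0.13, adjusted p = 0.130) and ND-B16.6 (0.10, adjusted p = 0.202), also accessory subunits, did not overlap between groups.

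The 7 nuclear core subunits of complex I carry its flavin and iron-sulfur centres or hold the ubiquinone site. ND-75, ND-51 and ND-24 form the part that oxidizes NADH, and ND-49, ND-30, ND-20 and ND-23 the part that leads to ubiquinone. They summed to 1065 ± 37.7 TPM with Stwl overexpression and 1079 ± 10.4 TPM in controls, and the 27 accessory subunits to 5053 ± 93.4 and 5011 ± 191 TPM. Core sums were 1024, 1043, 1090 and 1104 TPM in Stwl overexpression replicates 1 to 4. Replicates 1 and 2 were lower than replicates 3 and 4 on the TPM scale, but not under the 2 other scalings run. With median-of-ratios scaling the order turned, at 1133, 1063, 1029 and 999, and without the 20 most abundant genes the sums were nearly equal, at 1392, 1381, 1384 and 1396, all below the controls (1409 to 1439). In the same libraries, the median deviation of all tested genes from the control mean was -0.12, -0.02, 0.08 and 0.13 (log2), lowest in replicate 1 and highest in replicate 4.

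For ND-24 the adjusted p lay on different sides of the threshold in the 2 tests. Its level was 141, 145, 173 and 168 TPM in Stwl overexpression libraries, against 165, 165, 170 and 170 TPM in control libraries. The first 2 Stwl overexpression libraries lay below every control and the others did not. The limma log2 fold change was -0.10 (SE 0.071, adjusted p = 0.483), while the authors' deposited table gives -0.13 with an adjusted p of 0.0409 and marks the gene as not changed. ND-75, the largest core subunit, had 126 ± 4.26 TPM with Stwl overexpression and 133 ± 2.56 TPM in controls; the groups did not overlap, and the fold change of -0.08 did not pass (limma adjusted p = 0.393). ND-51, which binds NADH, had 182 ± 10.7 and 181 ± 4.00 TPM.

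Complex III passes electrons from ubiquinol to cytochrome c. None of its 6 genes passed the limma test, none had an unadjusted p under 0.05, none had an adjusted p under 0.05 in the authors' table, and every one overlapped between groups. Fold changes ran from -0.02 for UQCR-6.4, its most abundant gene at 734 TPM, to 0.05 for UQCR-14, and the confidence intervals of all 6 lay between -0.16 and 0.15. The core proteins UQCR-C1 and UQCR-C2 had 248 ± 5.88 and 177 ± 9.42 TPM with Stwl overexpression, against 240 ± 3.52 and 176 ± 8.20 TPM in controls.

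Complex IV, cytochrome c oxidase, reduces oxygen. None of its 7 genes passed the limma test, 2 had an unadjusted p under 0.05, and none had an adjusted p under 0.05 in the authors' table. The accessory subunits COX7C, COX7A and COX6B did not overlap between groups (3 of 7, against 16% of all tested genes), and they differed in direction. COX7C had 544, 509, 538 and 513 TPM in Stwl overexpression libraries, against 461, 482, 486 and 458 TPM in control libraries. Every Stwl overexpression library was above every control, and the log2 fold change of 0.16 (SE 0.042) missed the threshold with a limma adjusted p of 0.0524. COX7A had 640, 698, 644 and 668 TPM with Stwl overexpression, against 715, 725, 718 and 703 TPM in controls. Every Stwl overexpression library was below every control (log2 fold change -0.11, limma adjusted p = 0.146). COX6B, the most abundant of the 7, had 704 ± 14.5 and 742 ± 9.51 TPM, a log2 fold change of -0.08 (adjusted p = 0.260). The fold change of COX4, the largest nuclear subunit, was 0.01, and COX5B was the least abundant at 306 TPM.

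Complex V consists of a catalytic F1 head, a rotating stalk with a ring of c subunits in the membrane, and a fixed outer stalk. Its 11 genes gave 0 higher and 1 lower with limma, and 3 with an unadjusted p under 0.05. At an adjusted p under 0.05 the authors' deposited table had 1, ATPsynbeta. The other 10 all had limma log2 fold changes above 0, none past the threshold, up to 0.11 for ATPsynB of the outer stalk (limma adjusted p = 0.157); in the authors' deposited table ATPsynCF6 and ATPsyndelta are at -0.02. In TPM, ATPsynB, ATPsynD, ATPsynE and ATPsyngamma were higher in every Stwl overexpression library than in any control. Their means were higher by 8.03%, 4.50%, 6.68% and 4.84% of the control mean. With ATPsynbeta, which was lower, 5 of 11 genes did not overlap between groups, against 16% of all tested genes. ATPsynC, which encodes the c ring, had 1244 ± 40.0 and 1198 ± 59.6 TPM.

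ATPsynbeta, which encodes the catalytic beta subunit of the F1 head, was the only subunit gene of the 58 that passed the limma test. It had 863, 808, 876 and 838 TPM in Stwl overexpression libraries, against 969, 951, 1006 and 966 TPM in control libraries. Every Stwl overexpression library lay below every control, with means of 846 ± 30.2 and 973 ± 23.6 TPM (SD, n = 4 each), 13.0% lower. The log2 fold change was -0.20 (SE 0.040, 95% confidence interval -0.29 to -0.11, limma adjusted p = 0.0154). The authors' deposited table gives -0.23 with an adjusted p of 0.0131, and marks the gene as not changed. The alpha subunit, which alternates with beta in the head and is encoded by blw, had 625 ± 17.0 and 626 ± 12.0 TPM. ATPsynbeta lies on chromosome 4 (1031484 to 1034917, plus strand, BDGP6 annotation) and overlaps CG11076 on the other strand, whose log2 fold change was 0.01. Its call held in 16 of 20 alternatives and was lost with median-of-ratios scaling (adjusted p = 0.0614), without the variance trend (0.0541), without Stwl overexpression replicate 2 (0.0515) and without control replicate 3 (0.0554).

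**Figure D3:**
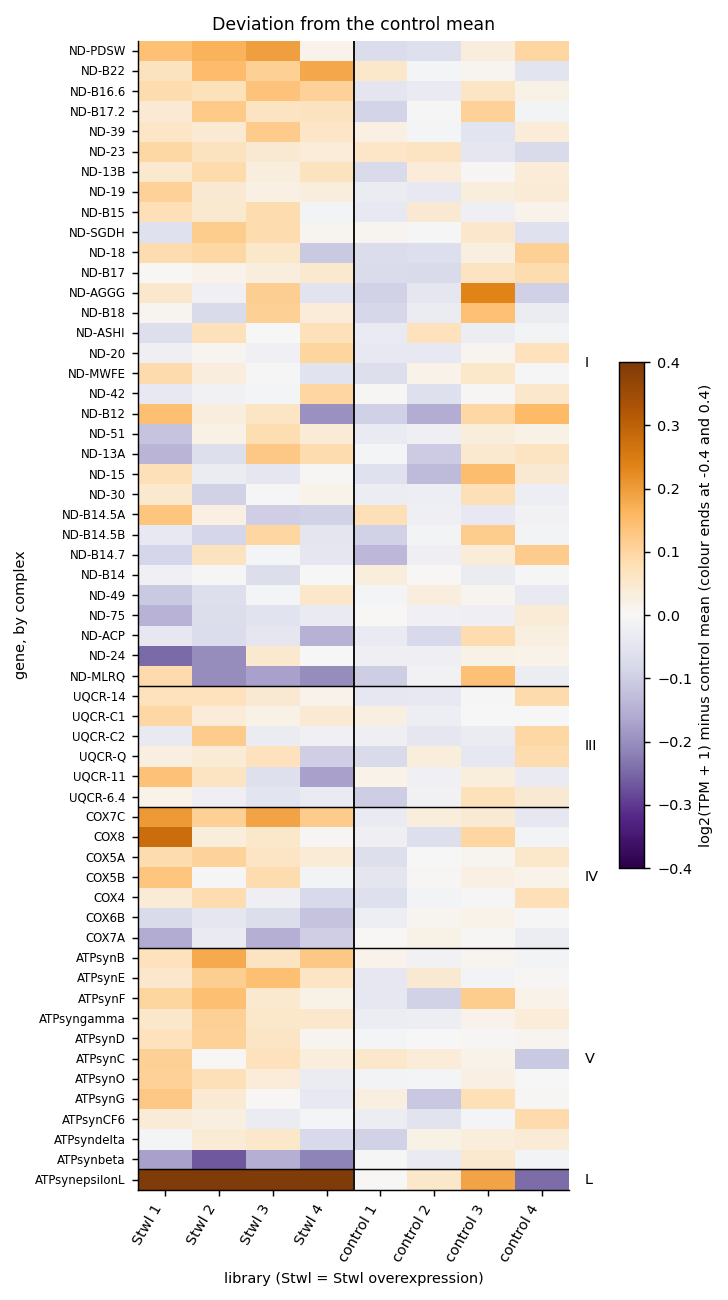
Each abundant subunit gene and ATPsynepsilonL (vertical axis, by complex) in each library (horizontal axis), coloured by log2(TPM + 1) minus the control mean, with the colour ending at -0.4 and 0.4. ATPsynbeta is below the control mean in all 4 Stwl overexpression libraries, and ATPsynepsilonL is above it by more than the scale shows.

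Of the L paralogues, 1 of the 3 tested rose, beside 6.2% of all tested genes, and none of the 3 was lower. ATPsynepsilonL, a duplicate of the gene for the epsilon subunit in the rotating stalk, had 87.2, 82.2, 90.1 and 76.3 TPM in Stwl overexpression libraries, against 47.1, 48.9, 53.7 and 39.6 TPM in control libraries. Every Stwl overexpression library was above every control, with means of 84.0 ± 6.08 and 47.3 ± 5.87 TPM (SD, n = 4 each). The log2 fold change was 0.82 (SE 0.095, 95% confidence interval 0.61 to 1.03, limma adjusted p = 0.00127), or 1.76-fold, which ranked 197 of 8898 tested genes from the top. It passed in 20 of 20 alternatives, with log2 fold changes of 0.74 to 0.88. The authors' deposited table gives 0.80, marks the gene as Up and names it as upregulated in both of the other studies that the table cites. What those studies compared is not described here, and 21.2% of the genes in that table are named as upregulated in either.

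The parent of ATPsynepsilonL is sun, whose synonym in RefSeq is ATPsynepsilon. It had 663, 579, 620 and 575 TPM in Stwl overexpression libraries, against 541, 540, 576 and 568 TPM in control libraries. These groups overlapped, Stwl overexpression replicate 4 lying just below control replicate 3, and the log2 fold change of 0.13 did not pass (limma adjusted p = 0.208). ATPsynepsilonL made up 12.1 ± 0.53% of the summed TPM of the pair with Stwl overexpression and 7.84 ± 0.91% in controls, without overlap. Reads that fit both copies may be divided between them by the authors' quantification. ATPsynepsilonL lies on chromosome 3R (10121773 to 10122320, plus strand) and overlaps no annotated gene. The closest genes on either side, gammaSnap2 and knk, averaged under 1 TPM and were not tested. For gammaSnap2 the libraries had 0.440 to 1.60 TPM with Stwl overexpression and 0.132 to 0.867 TPM in controls. Its groups overlapped, and its mean was 221% above the control mean. The groups of knk overlapped too, with a mean 8.02% below the control mean. Further out, CAH7, tws, Fmr1 and TAF1B had log2 fold changes of 0.07, -0.05, 0.12 and -0.16, none past the threshold.

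Lists of cell type markers were set beside ATPsynepsilonL. The sums of the follicle and eggshell list overlapped between groups, at 63118 to 92645 TPM with Stwl overexpression and 62229 to 91124 TPM in controls. Single genes of that list differed widely, with log2 fold changes from -0.21 to 5.17 and a median of 3.06. Of the 10, 6 were higher, and the other 4 had log2 fold changes below 0 and did not pass. Of 16 muscle sheath markers tested, 13 were higher and 0 lower, with a median log2 fold change of 0.64 and sums of 4874 to 5913 TPM in Stwl overexpression libraries and 3064 to 4008 TPM in control libraries. Of 6 hemocyte markers, 5 were higher and 0 lower, with sums of 142 to 210 TPM and 73.6 to 116 TPM. Among all tested genes, 6.2% were higher and 2.18% lower. Of 6 sperm and testis markers, 2 were abundant enough to test and neither passed; all 6 summed to 10.8 to 12.5 TPM with Stwl overexpression and 9.12 to 10.8 TPM in controls, with dj at 0 in every library. Both fat body markers tested missed the threshold, with list sums of 12.3 to 65.0 TPM and 5.00 to 27.7 TPM. The part of these cells in the level of ATPsynepsilonL was not tested.

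The other L paralogues were barely expressed. COX7AL had 4.67 ± 0.66 TPM with Stwl overexpression and 4.44 ± 0.75 TPM in controls (log2 fold change 0.06, limma adjusted p = 0.861), and COX4L 2.48 ± 0.53 and 2.06 ± 0.64 TPM (0.20, adjusted p = 0.639). ATPsynbetaL, ND-24L, UQCR-11L, COX5BL, COX6AL and ND-51L1 averaged under 1 TPM, and their libraries overlapped between groups. COX5BL and COX7AL each lie close to the parent, COX5BL at 2L (6559431 to 6560133) beside COX5B (6557800 to 6559308) and COX7AL at 3R (8343669 to 8344310) beside COX7A (8339944 to 8341043), and their levels were far below those of the parents in every library.

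ND-B8 and ND-MNLL, both accessory subunits of complex I, were the only subunit genes under 5 TPM. ND-MNLL was listed at 6.61, 0.345, 0 and 0 TPM in Stwl overexpression libraries, against 2.98, 0, 0 and 3.85 TPM in control libraries. It shares its strand and its annotated span on the X chromosome (7893053 to 7893798) with CG45089, listed at 249 ± 17.2 and 230 ± 6.85 TPM, so their reads cannot be told apart by position. ND-B8 had 1.29 ± 1.01 and 1.60 ± 1.02 TPM and overlaps Gs1l on the other strand. In all, 33 of the 58 subunit genes overlap another annotated gene.

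Subunits of the same complexes that carry other symbols were described from a list of 9, of which 7 were tested. Of these 1 rose and 0 fell, against 6.2% higher and 2.18% lower among all tested genes. The one that rose was ox, a small subunit of complex III, with 683, 712, 738 and 663 TPM in Stwl overexpression libraries, against 565, 551, 604 and 583 TPM in control libraries. Its groups did not overlap (log2 fold change 0.28, SE 0.048, limma adjusted p = 0.00782). RFeSP, the iron-sulfur protein of the same complex, had a log2 fold change of 0.11 (adjusted p = 0.280) and Cyt-c1 of -0.02 (0.919). In complex IV, cype had 0.06 (0.540) and levy 0.04 (0.803). None of the 4 genes of complex II, which feeds electrons from succinate, passed.

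Cytochrome c shuttles electrons from complex III to complex IV, and membrane carriers supply the ATP synthase with phosphate and ADP. Cyt-c-d, 1 of 2 cytochrome c genes and known for its part in sperm maturation, had 3.36, 4.77, 6.09 and 5.72 TPM in Stwl overexpression libraries, against 2.48, 1.33, 1.52 and 1.97 TPM in control libraries. The groups did not overlap (log2 fold change 1.08, limma adjusted p = 0.00843). Cyt-c-p, the main cytochrome c gene, had 528 ± 32.2 and 522 ± 16.4 TPM, a log2 fold change of 0.01, and Cyt-c-d made up 0.94 ± 0.23% of the pair with Stwl overexpression and 0.35 ± 0.090% in controls. Of 5 carrier genes 2 rose and 1 fell, against 6.2% higher and 2.18% lower among all tested genes. The mitochondrial phosphate carriers Mpcp2 and Mpcp1 rose by 0.28 (adjusted p = 0.00334) and 0.70 (adjusted p = 0.0188), to 418 ± 9.15 TPM against 345 ± 9.62 TPM in controls and to 15.4 ± 2.65 TPM against 9.09 ± 1.81 TPM. The call of Mpcp1 was lost in 5 of 20 alternatives, each without 1 library (adjusted p up to 0.0619). The outer membrane channel porin had 880, 829, 861 and 822 TPM with Stwl overexpression, against 1009, 984, 1012 and 1015 TPM in controls. It fell by 0.25 on the log2 scale (limma adjusted p = 0.00438). The ADP/ATP exchangers sesB and Ant2 had log2 fold changes of 0.02 and 0.13, neither past the threshold.

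**Figure D4:**
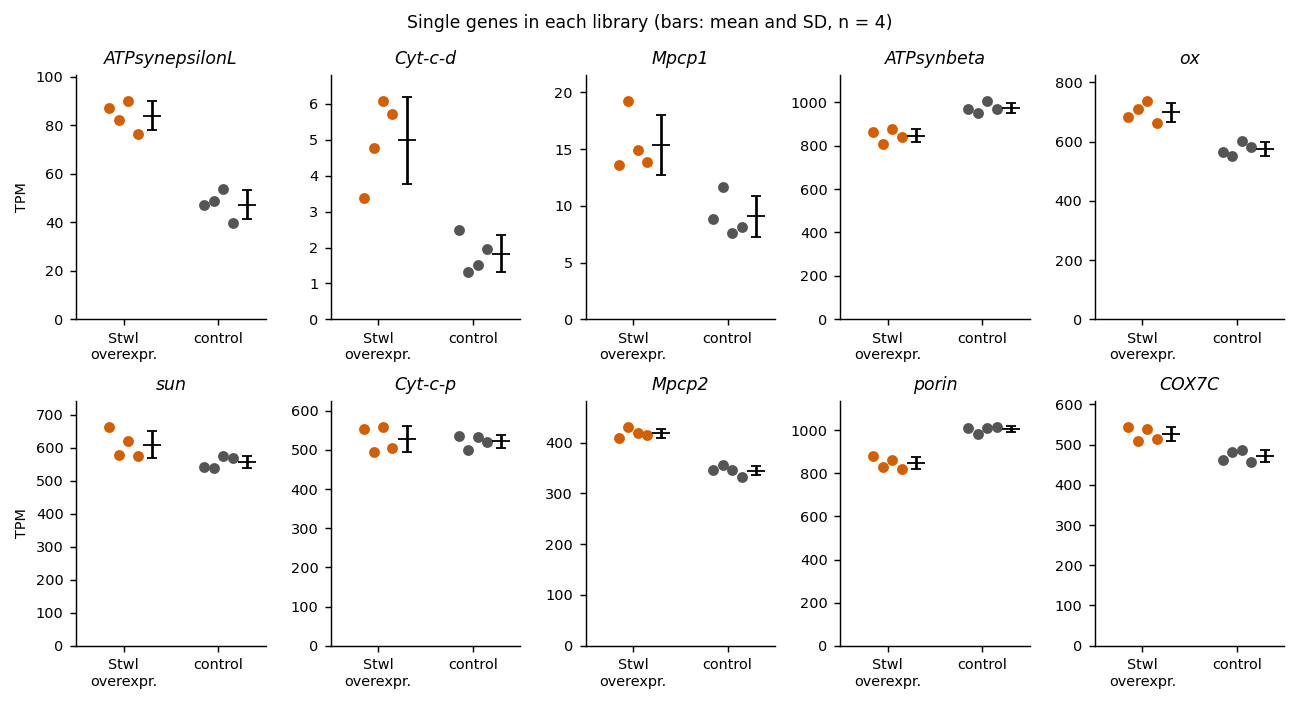
TPM of 10 genes of the complexes, of cytochrome c and of the carriers in each library, with Stwl overexpression in orange and control in grey; bars give the mean and SD (n = 4) and every axis starts at 0. ATPsynepsilonL, Cyt-c-d, Mpcp1, Mpcp2 and ox lie higher with Stwl overexpression, ATPsynbeta and porin lie lower, and sun and Cyt-c-p overlap.

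Other genes of mitochondrial energy metabolism had small median changes. None of 12 genes of the citric acid cycle passed the limma test (median log2 fold change 0.05, smallest adjusted p = 0.0506). The same held for 73 genes of the mitochondrial ribosome (median 0.03), 8 of mitochondrial DNA upkeep and biogenesis (median -0.07) and 3 assembly factors. Without overlap between groups were 4 of the 12, 9 of the 73 and 0 of the 8, against 16% of all tested genes. At an adjusted p under 0.05 the authors' deposited table has 1, 2 and 2 of them, against 18.9% of its genes with a value. The most abundant of these sets were Scsalpha1 of the citric acid cycle, at 255 ± 3.01 and 263 ± 7.40 TPM, mRpL33 at 218 ± 18.1 and 213 ± 7.25 TPM, and mtSSB, which coats mitochondrial DNA, at 253 ± 13.5 and 236 ± 14.7 TPM. Of 12 glycolysis genes 2 rose with limma, against 6.2% of all tested genes. These were Ald1, by 0.36 (limma adjusted p = 0.00824), and Tpi, by 0.46 (limma adjusted p = 0.0402). Their levels were 184 ± 13.5 against 143 ± 7.46 TPM and 118 ± 20.9 against 84.9 ± 5.09 TPM. Of the 12, 6 did not overlap between groups, and 3 had an adjusted p under 0.05 in the authors' deposited table. Tpi passed in 9 of 20 alternatives and Ald1 in 19, being lost with median-of-ratios scaling (adjusted p = 0.0760). Of the mitochondrially encoded subunits, mt:ATPase8 was listed at 0 in 5 of 8 libraries and the others were not analysed here.

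The authors' deposited table also marks genes with a Stwl peak within 1 kb of the gene body. It marks 50 of the 58 subunit genes (86.2%) and 2 of the 9 L paralogues (22.2%), against 8404 of 11397 genes (73.7%). ATPsynbeta is marked with a peak and ATPsynepsilonL is not. Among the 63 members with an adjusted p there, 3 had one under 0.05 (4.76%), namely ATPsynbeta, ND-24 and ATPsynepsilonL, against 18.9% of its genes with a value. Of these 3, the table's own mark is Up for ATPsynepsilonL and not changed for the others. It names 6 of the 58 subunit genes (10.3%) as upregulated in another study, against 21.2% of all its genes. These were ND-B17.2, ND-B18, ND-SGDH, COX4, COX6B and COX7A, with log2 fold changes here of -0.11 to 0.07.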

How the data were processed

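The authors deposited TPM values for 14094 genes in 8 libraries. The headers name log2 TPM, but each column sums to 1000000, so the deposited TPM were used as linear values. Their own comparison holds a mean normalized signal, log2 fold changes, a score (the test statistic) and p-values, per the file headers, and the deposited signal and score were not used. Salmon 1.10.1, DESeq2 1.37.4 and BDGP 6 are named in the submitters' processing notes; which step each served is not stated there.

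The 8898 genes averaging at least 1 TPM were transformed to log2(TPM + 1), which understates changes of low genes, and fitted on group with limma 3.58.1 in R 4.3.3 (empirical Bayes with variance trend, Benjamini-Hochberg over all tested genes, 0.05). The fit was tested on simulated data. With 4 against 4 libraries an exact two-sided permutation test cannot go below 0.0286. Positions are from Ensembl release 115.

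Members and lists were chosen with earlier results of these data known. Named were all called members, per complex the most abundant and the most changed member either way, L paralogues with parents, and up to 4 called genes, otherwise the 2 most abundant, of each list; others named were chosen after their values were seen. No library batch is given. A planned promoter motif search was not run.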

Additional observations from a re-analysis of the deposited data

Results flagged for a closer look

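In groups of 4 libraries, the highest or lowest library was compared with its nearest neighbour, as a share of the group's whole range; the critical value of Dixon's test was passed in 4 of 70 groups, and chance gives about 1 in 20. ND-MLRQ had a share of 0.917 with Stwl overexpression, where replicate 1 (602 TPM) lay above the others (492 to 501 TPM). ND-MNLL had 0.948 with Stwl overexpression, where replicate 1 (6.61 TPM) lay above the others (0 to 0.345 TPM). COX5BL had 0.851 with Stwl overexpression, where replicate 1 (0.600 TPM) was again the highest. UQCR-11L had 0.896 in controls, where replicate 2 was listed at 0.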

How the results depend on the processing

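Among all tested genes, 552 were higher and 194 lower (74.0% higher). Library weights gave 2293 and 804, median-of-ratios scaling 820 and 585 (58.4% higher), quantile normalization 663 and 715 (48.1%), leaving out the 20 most abundant genes 657 and 379 (63.4%), and the authors' deposited test 1113 and 893 (55.5%). Leaving out 1 library gave 336 to 988 higher, the most without Stwl overexpression replicate 1 and the fewest without Stwl overexpression replicate 3 (340 without replicate 2, 354 without control replicate 4), and 99 to 248 lower, with 99 without control replicate 3, 103 without control replicate 4, 106 without control replicate 1 and 105 without Stwl overexpression replicate 2. Of the 58 subunit genes, library weights called 6 higher and 4 lower (complex I 4 and 1, complex IV 1 and 2, complex V 1 and 1), quantile normalization 3 lower (1 each in complexes I, IV and V) and the authors' test, at an adjusted p under 0.05, 2 lower (1 in complex I). ATPsynbeta ended with 0 lower calls, in the subunit genes and in complex V, under median-of-ratios scaling, without the variance trend, and without Stwl overexpression replicate 2 or control replicate 3, so that leaving out 1 library gave 0 to 1. Quantile normalization moved the median log2 fold change to -0.034 in complex I, 0.0049 in complex IV and 0.016 in complex V, and to -0.024 over all tested genes. Library weights put COX7C (adjusted p = 0.0026), COX7A (0.0048, and 0.0120 with quantile normalization), ND-MLRQ (0.0098), sun (0.0228), ND-PDSW (0.0274) and COX6B (0.0326) past the threshold. The causes were not tested. Without control replicate 3 and Stwl overexpression replicate 1 together, a setting chosen after seeing the data, 752 genes were higher and 147 lower, with 0 and 1 among the subunit genes. The deviations of each library from its group mean were correlated between the groups. For libraries of the same number these correlations were 0.13, -0.02, -0.13 and 0.14, so the numbers were not taken to pair libraries. The deviations of 3 of 8 libraries correlated best with those of their own number. The replicate block gave 576 higher and 202 lower, and 0 and 1 among the subunit genes. No called result changed direction under these alternatives. Depth is unknown, which limits what can be said of the paralogues under 1 TPM.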

Other observations

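The annotation gives such a symbol to 13 further genes that carry another one in the authors' table or are not in it, and 11 of them averaged under 1 TPM. COX7B, listed by the authors as CG7630, was abundant, at 744 ± 63.8 TPM with Stwl overexpression and 703 ± 38.2 TPM in control libraries (log2 fold change 0.08, limma adjusted p = 0.573).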
